A study of Homo sapiens with 12 samples.

Results

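Solute carriers are membrane proteins that move ions, amino acids, nucleotides, metals and other small molecules across the plasma membrane and the membranes of organelles. Their transcripts were followed here in a MeRIP-seq experiment on K1 cells, a line established from human papillary thyroid cancer. The genes were taken by name. A gene was included when its symbol began with SLC followed by a family number, a letter and a member number, or with SLCO, the organic anion transporter family. The glucose transporters of the SLC2A family, the lactate carriers SLC16A1 and SLC16A3, the iodide carrier SLC5A5 and genes annotated to the lysosome pathway were left out, which removed 8 genes with a peak. This gave 94 genes of the 7623 genes with a peak in any list. Of these, 91 encode carriers, and 3 encode adaptor proteins whose symbols only begin like that of a carrier (SLC4A1AP, SLC9A3R1 and SLC9A3R2).

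N6-methyladenosine (m6A) is a methyl mark on adenosines inside mRNA. It is written by a methyltransferase complex that contains METTL3 and METTL14, removed by the demethylases FTO and ALKBH5, and bound by reader proteins that act on splicing, translation and decay. In MeRIP-seq, RNA fragments are pulled down with an antibody against m6A (IP) and sequenced beside the unselected fragments (input), and a peak marks where along a transcript the IP reads exceed the input reads. The amino acid carriers of this family feed protein synthesis and glutathione synthesis in tumor cells, zinc carriers load the Golgi and secretory vesicles, and SLC7A8 is known to carry thyroid hormones.

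The cells received a control siRNA (si-NC) or an siRNA against FTO (si-FTO), with 3 IP and 3 input libraries in each group. The knockdown was transient and was made in a single cell line. Both siRNAs against FTO that the study lists are shown. Their sense strands are written from the 5′ end, with the overhang of 2 thymines in capitals.
si-FTO-1: tcaccaaggagactgctatTT
si-FTO-2: ctagggttttgcttccagaaTT
The sources used here do not tell which of them was used for which si-FTO library, or whether both were used. They also do not say whether the libraries stem from separate cultures. The p-values therefore reflect the spread among these libraries, which may be technical.

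The authors deposited 1 MACS peak list for each IP library, with hg19 positions and a gene for each peak. No listed peak had a p-value above 1e-05. The depth behind a peak is unknown, because read counts were not used here. The lists held 7921 to 8999 peaks in 5263 to 5954 genes. The median FDR of a list was 47.45% to 99.6% in si-NC and 41.15% to 47.2% in si-FTO, and peak identifiers ran up to 68972 to 98175 in the si-NC lists but up to 56265 to 57034 in the si-FTO lists. Both values separated the groups, and their part in the results was not tested. Of 8 markers of the thyroid lineage only FOXE1 had a peak, in all 6 lists. Of 6 epithelial markers KRT8 had a peak in all 6 lists and KRT7 in 1 list, and of 7 markers of other cell types CD14 and COL1A1 had a peak in all 6 lists. Peaks carry no measure of mRNA level, so neither the identity of the cells nor the knockdown of FTO could be checked from the lists.

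The first question was whether solute carrier transcripts carried peaks equally often in both groups. Peaks were found on 71, 68 and 73 solute carrier genes in si-NC 1, 2 and 3, but on 52, 65 and 57 genes in si-FTO 1, 2 and 3. The means were 70.7 ± 2.52 genes (SD, n = 3) in si-NC and 58 ± 6.56 genes (SD, n = 3) in si-FTO, and the groups did not overlap. The number of all genes with a peak was lower in si-FTO as well, so the share of listed genes that were solute carriers was taken. This share was 1.26%, 1.21% and 1.23% in the si-NC lists and 0.988%, 1.16% and 1.04% in the si-FTO lists. Every si-FTO list was below every si-NC list, and si-FTO 1 had the lowest value. The plot of genes and shares per list shows both measures.

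**Figure D1:**
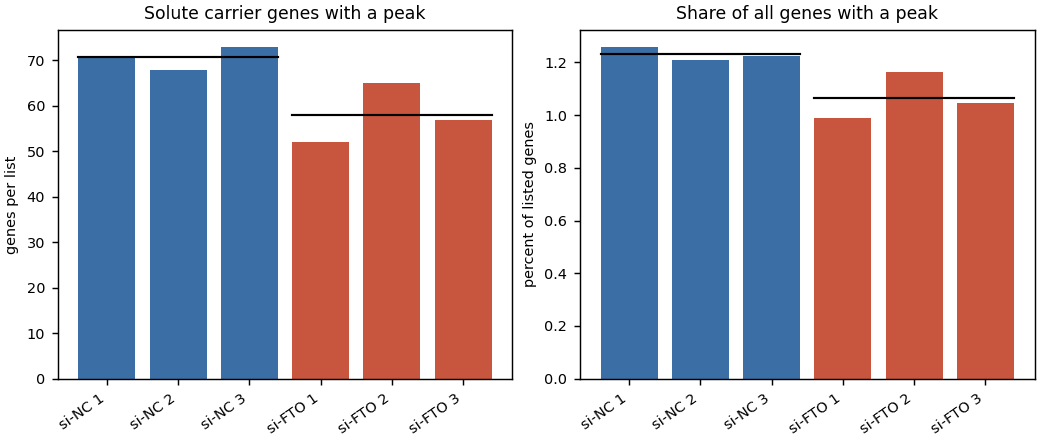
Solute carrier genes with a peak in each list (left, number of genes) and their share of all genes with a peak in that list (right, percent). Each bar is 1 IP library and the black lines are group means (n = 3). The 3 si-NC lists held 68 to 73 genes and the 3 si-FTO lists 52 to 65.

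The peaks themselves followed the same order. Solute carrier peaks numbered 95, 88 and 98 in si-NC versus 62, 80 and 75 in si-FTO. These were 1.04% to 1.13% of the peaks of a si-NC list and 0.783% to 0.946% of those of a si-FTO list, without overlap between the groups. A solute carrier gene with a peak had 1.29 to 1.34 peaks in si-NC and 1.19 to 1.32 in si-FTO, which is fewer than the mean over all genes (1.50 in si-NC compared with 1.51 in si-FTO). In contrast, the length of the peaks did not separate the groups. Their mean length was 1099 ± 3.93 bp in the si-NC lists (SD, n = 3) and 1125 ± 64.3 bp in the si-FTO lists (SD, n = 3).

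The strength of a peak was described by its fold enrichment, which is the authors' ratio of IP over input, and by the percentile of that ratio within its own list. The median percentile of the solute carrier peaks was 48.2, 54.3 and 56.4 in si-NC versus 54.4, 46.3 and 48.0 in si-FTO, so the family sat near the middle of every list and the groups overlapped. Within the family the range was wide. Among the genes listed in all 6 lists, the highest mean percentiles over the lists were those of SLC4A1AP, SLC24A1, SLC45A4, SLC39A14, SLC35E1, SLC6A6, SLC35E4, SLC9A3R2, SLC26A2 and SLC7A8. SLC9A3R2 and SLC7A8 stood high in the si-FTO lists and lower in the si-NC lists.

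SLC4A1AP, which encodes the nuclear adaptor kanadaptin, had its strongest peak at chr2:27907904-27908144. Its fold enrichment was 41.33, 34.75 and 38.31 in si-NC compared with 44.02, 30.75 and 38.93 in si-FTO, above 98% of the peaks in each list. SLC24A1, a sodium, calcium and potassium exchanger best known from rod photoreceptors, had 2 peaks in every list. The peak at chr15:65942720-65943280 reached 31.31, 17.99 and 30.14 in si-NC versus 21.91, 22.81 and 31.77 in si-FTO. SLC39A14 (ZIP14), which imports zinc, iron and manganese, gave the most even values of the group, with 15.70, 15.22 and 15.16 in si-NC compared with 15.48, 15.74 and 14.28 in si-FTO. For these 3 genes the groups overlapped. SLC24A1 shares genomic sequence with DENND4A in the RefSeq annotation, and the sources used here do not say whether strand was used in making the lists. At least 21 of the 94 genes overlap another protein-coding gene there, among them SLC6A6, SLC16A6, SLC20A2, SLC25A23, SLC30A4 and SLC35E4.

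**Figure D2:**
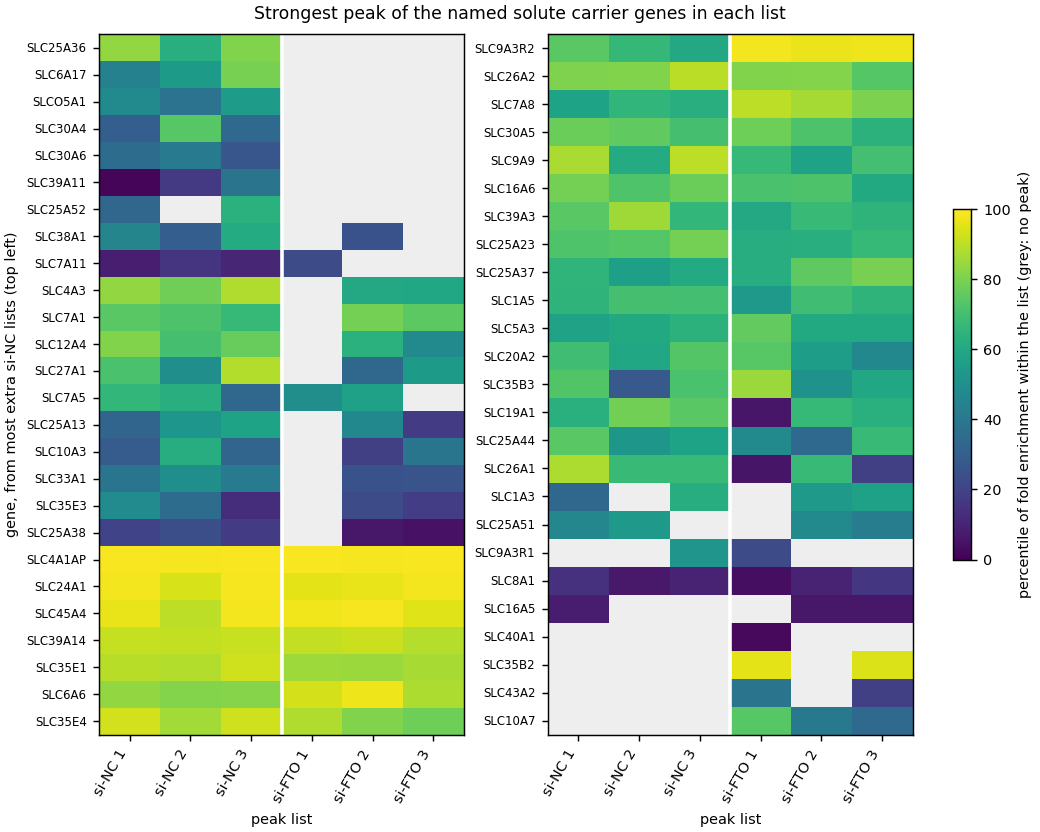
Within-list percentile of fold enrichment (0 to 100) of the strongest peak of the 51 solute carrier genes named in the text (rows) in each of the 6 lists (columns), in which grey means that the list holds no peak. The order runs from genes with the most additional si-NC lists (top left) to SLC10A7, which had a peak in all 3 si-FTO lists and no si-NC list (bottom right).

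Next, the lists that each gene appeared in were compared. A peak in all 6 lists was found for 34 of the 94 genes (36.2%), while 49.0% of all genes with a peak had this pattern. More si-NC than si-FTO lists held a peak for 40 genes (42.6%, against 27.2% of all genes), and more si-FTO than si-NC lists for 15 genes (15.96%, against 18.5%). The pattern of a peak in all 3 si-NC lists and no si-FTO list was found for 6 genes (6.38%). Over all 7623 genes it was found for 2.75%. The opposite pattern was found for 1 gene (1.06%), where the share over all genes was 2.28%. The latter count was 2 (2.15%, against 3.35%) without si-FTO 1, 3 (3.30%, against 3.14%) without si-FTO 2 and 2 (2.15%, against 3.14%) without si-FTO 3. A single gene with either pattern has an exact permutation p of 0.1, two-sided, the smallest that 3 lists against 3 allow.

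The 6 genes with peaks in si-NC alone were SLC30A4, SLC30A6, SLC39A11, SLC25A36, SLC6A17 and SLCO5A1. All 6 keep the pattern by construction when a library is left out, so those settings do not test the pattern. SLC39A11 lost it when only the upper 75% of peaks by fold enrichment was kept, and SLCO5A1 lost it when the lists were brought to equal length. A gene without a listed peak may still carry the mark below the threshold of the caller.

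Of these 6 genes, 3 encode zinc transporters. The class of zinc and other metal transporters held 13 of the 94 genes, and no test was made on it. The pattern was found for 2.75% of all genes. SLC30A6 (ZnT6) partners with ZnT5 in loading zinc into the secretory pathway, and its peak at chr2:32445282-32446172 had a fold enrichment of 6.07, 6.47 and 5.40 in si-NC 1, 2 and 3. SLC30A4 (ZnT4), which moves zinc into vesicles, had a peak at chr15:45814162-45814666 with 5.11, 7.28 and 5.86. A second SLC30A4 peak was listed in si-NC 1 and 2. SLC39A11 (ZIP11), which is found at the Golgi, had weak peaks at 3 separate places, and none of these was common to the 3 si-NC lists. Its strongest peak in each list stood at percentile 1.66, 16.8 and 38.6, so the gene was present in si-NC without a shared site.

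SLC25A36, which carries pyrimidine nucleotides into mitochondria, had the strongest peak of the 6 genes. At chr3:140695102-140696239 its fold enrichment was 12.13, 8.35 and 11.06 in si-NC, which placed it at percentile 83.8, 62.9 and 81.2. SLC6A17 is a transporter of neutral amino acids known from synaptic vesicles. Its peak at chr1:110693132-110693505 had 5.99, 7.49 and 10.71, and another peak was listed in si-NC 1 and 3. SLCO5A1, an organic anion transporter family member, had a peak at chr8:70744002-70745457 with 6.99, 6.24 and 7.43. SLC10A7, of the bile acid carrier family, showed the opposite pattern. Its peak at chr4:147442770-147443123 had 9.84, 6.22 and 5.79 in si-FTO 1, 2 and 3.

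The remaining genes with fewer si-FTO lists included a group that lacked a peak in si-FTO 1 alone. Of the 94 genes, 10 had a peak in every list but si-FTO 1 (10.6%, against 3.38% of all genes). They include SLC7A1 (the arginine carrier CAT1), SLC12A4 (the potassium and chloride cotransporter KCC1), SLC25A13 (the aspartate and glutamate carrier citrin), SLC27A1 (a fatty acid transport protein) and SLC33A1 (the acetyl-CoA carrier of the endoplasmic reticulum). Others were SLC4A3, SLC10A3, SLC25A38 and SLC35E3. In SLC4A3, SLC25A38 and SLC35E3 no region was shared by si-FTO 2 and 3, so si-FTO 1 was not the only list without a given site. Without si-FTO 1, the number of genes in si-NC alone was 9 (9.68%, against 3.76% of all genes). Leaving out a library cannot lower that count, so it does not show whether the pattern rests on si-FTO 1. The difference in solute carrier genes per list was -9.67 without si-FTO 1, in place of -12.7.

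A gene can hold several peaks, so overlapping peaks were merged over the 6 lists and the merged regions were compared. The 94 genes held 136 regions of 12995, with 61 genes holding 1 region and 33 genes holding more. A peak in all 3 si-NC lists and no si-FTO list was found for 9 regions (6.62%, against 3.2% of all regions). The opposite was found for 1 region (0.735%, against 2.92%), that of SLC10A7. This count rested on the libraries used. It was 7 of 135 regions (5.19%, against 4.45%) without si-FTO 1. Without si-FTO 2 it was 3 (2.29%, against 4.39%), and without si-FTO 3 it was 2 (1.49%, against 4.43%). The 7 include 1 gene counted on chromosome X and again on chromosome Y. Each of its regions spanned 248 bp and was in si-FTO 2 and 3 alone. Of the 9 regions, 5 were in genes that had no si-FTO peak at all, which are the genes above other than SLC39A11. The other 4 were in SLC45A4, SLC16A6, SLC30A5 and SLC35B3, which kept a peak elsewhere in all 6 lists.

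The strongest region listed in si-NC alone was in SLC45A4, a gene of a family of proton-coupled sugar carriers. It lay at chr8:142218958-142221796, spanned 2839 bp, and its fold enrichment was 12.41, 14.97 and 11.51 in si-NC. With 4 regions SLC45A4 had more than any other solute carrier gene, and its other 3 regions were listed in all 6 lists. Its strongest region, at chr8:142264088-142264728, had 21.87, 12.64 and 27.35 in si-NC versus 27.26, 32.53 and 19.69 in si-FTO. The si-FTO lists thus lacked 1 region of this gene, while the groups overlapped at its strongest one.

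In SLC16A6 (MCT7), a carrier of ketone bodies, the region at chr17:66264344-66265487 had 6.91, 5.52 and 6.22 in si-NC and was in no si-FTO list. Its neighbor at chr17:66266980-66267795 had 10.92, 9.70 and 10.25 in si-NC compared with 9.32, 9.24 and 8.03 in si-FTO. The groups did not overlap there, but the difference was small and did not pass the test given below. In SLC30A5 (ZnT5), the partner of ZnT6, the region at chr5:68389776-68390165 had 3.60, 7.59 and 4.44 in si-NC alone. The second SLC30A5 region was in all 6 lists with 8.40 to 10.61. SLC35B3, which brings the sulfate donor PAPS into the Golgi, had a si-NC region at chr6:8429889-8430390 with 5.52, 4.06 and 3.66. Both these regions were weak in at least 1 list, at percentile 3.2 in si-NC 1 for SLC30A5 and 4.17 in si-NC 3 for SLC35B3.

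For the regions listed in all 6 lists, the fold enrichment itself was compared. The log2 fold enrichment was centred on the median of each list and tested with limma, with Benjamini-Hochberg adjustment over all 4737 such regions, 40 of them in solute carrier genes. Regions with an adjusted p under 0.05 were 2 with higher and 1 with lower enrichment in si-FTO. Over all regions 4.2% were higher and 3.4% were lower, so the count in solute carriers was near the background. At an unadjusted p under 0.05 there were 4 higher and 3 lower regions, beside 13.9% and 11.8% of all regions. The median log2 difference was -0.07 over the 40 regions and 0.01 over all 4737, and 27 of the 40 were below 0. The groups did not overlap with si-FTO higher for 4 of the 40 regions, against 17.2% of all, and with si-FTO lower for 7, against 14.7%.

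**Figure D3:**
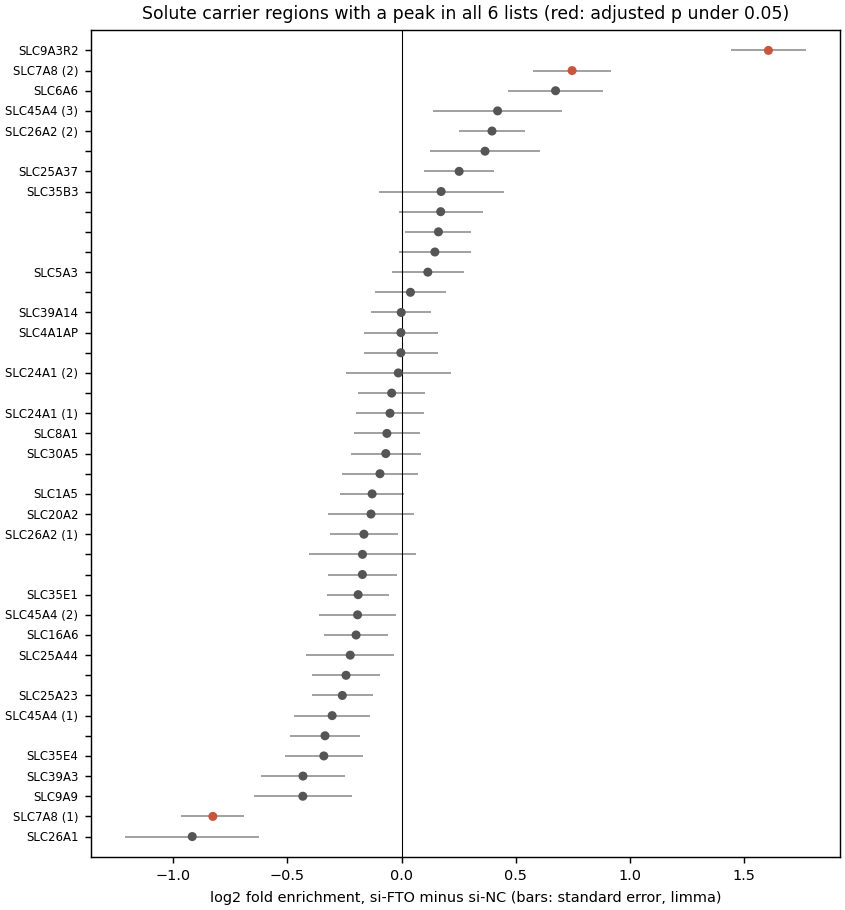
Difference in log2 fold enrichment (si-FTO minus si-NC, limma) for the 40 solute carrier regions listed in all 6 lists, with bars for the standard error (n = 3 libraries per group). Regions of 1 gene are numbered from the lowest difference, genes not named in the text have no label, and the 3 regions in red, in SLC9A3R2 and SLC7A8, had an adjusted p under 0.05.

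The largest difference among the 40 regions was in SLC9A3R2, which encodes the scaffold protein NHERF2. This protein binds the sodium and proton exchanger NHE3 and other membrane proteins and is not itself a carrier. Its peak at chr16:2087827-2088777 had a fold enrichment of 9.98, 8.86 and 7.94 in si-NC versus 31.07, 23.43 and 26.19 in si-FTO. Every si-FTO list was above every si-NC list, and the means were 8.93 ± 1.02 and 26.9 ± 3.87 (SD, n = 3). The log2 difference was 1.61 (SE 0.16, limma adjusted p = 0.00418), and the region passed the test in 12 of 12 alternatives. The other adaptor of this kind, SLC9A3R1 (NHERF1), had a peak only in si-NC 3 and si-FTO 1.

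SLC7A8 (LAT2), which exchanges large neutral amino acids and carries thyroid hormones, differed in opposite directions at its 2 regions. The gene lies on the minus strand of chromosome 14. The region nearer the 5′ end, at chr14:23651973-23652869, had 7.86, 8.74 and 6.93 in si-NC compared with 15.14, 12.85 and 11.13 in si-FTO. Its log2 difference was 0.75 (SE 0.17, limma adjusted p = 0.0361). The region nearer the 3′ end, at chr14:23594504-23596552, had 7.74, 8.49 and 8.19 in si-NC versus 4.79, 4.28 and 4.54 in si-FTO. Here the log2 difference was -0.83 (SE 0.14, limma adjusted p = 0.0146). The groups did not overlap at either region.

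The ratio of these regions within each list needs no common scale between lists. The log2 ratio of the 5′ over the 3′ region of SLC7A8 was 0.02, 0.04 and -0.24 in si-NC compared with 1.66, 1.59 and 1.29 in si-FTO. In si-NC both regions were about equally enriched, and in every si-FTO list the 5′ region exceeded the 3′ region. The means were -0.06 ± 0.16 and 1.51 ± 0.19 (SD, n = 3), a difference of 1.57. Its exact permutation p was 0.1, two-sided, the smallest that 3 lists against 3 allow. This p adds no support, since the ratio was chosen after the tests of both regions were known. The call of the 5′ region was lost when any of the 6 libraries was left out (limma adjusted p = 0.0524 to 0.101). That of the 3′ region was lost only without si-FTO 1 (limma adjusted p = 0.0513).

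**Figure D4:**
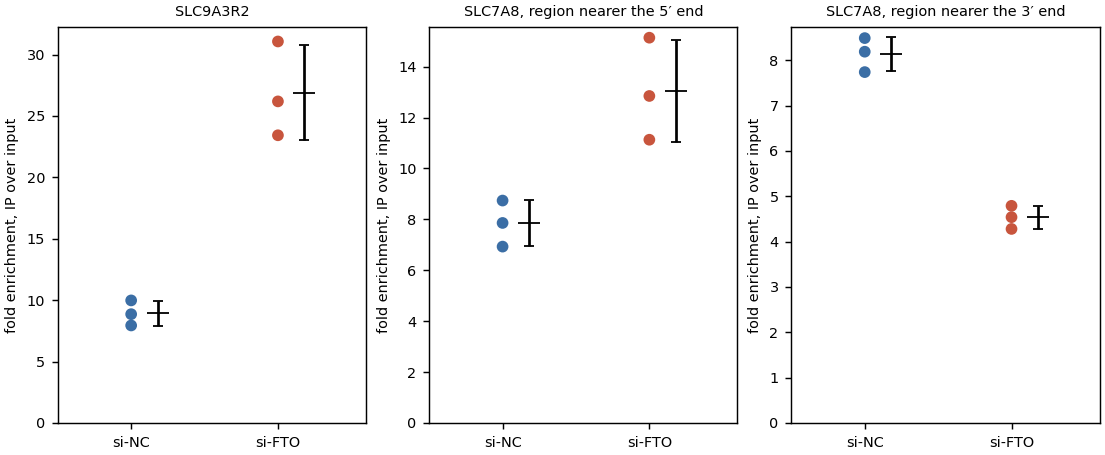
Fold enrichment (IP over input, linear axes from 0) of the 3 regions with an adjusted p under 0.05, with 1 point per list and the mean ± SD (n = 3) beside the points. si-FTO was higher at SLC9A3R2 and at the 5′ region of SLC7A8, and lower at the 3′ region of SLC7A8.

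Other regions with large differences did not pass the test. SLC6A6, the taurine carrier, had 12.10, 11.48 and 11.21 in si-NC versus 18.11, 24.67 and 13.64 in si-FTO at chr3:14444076-14444355 (log2 difference 0.67, limma adjusted p = 0.080). The groups did not overlap, but the si-FTO lists were widely spread. SLC26A1, a sulfate exchanger, had 13.67, 9.01 and 8.79 in si-NC compared with 3.75, 8.64 and 4.79 in si-FTO at chr4:981445-984150 (log2 difference -0.92, limma adjusted p = 0.0902). SLC26A1 and IDUA overlap in the RefSeq annotation, so the gene of this peak is uncertain. SLC26A2, the sulfate carrier that supplies cartilage matrix synthesis, had 4.76, 4.32 and 4.81 in si-NC versus 5.22, 6.63 and 6.27 in si-FTO at chr5:149357191-149357914 (log2 difference 0.40, limma adjusted p = 0.127).

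SLC19A1, the reduced folate carrier, was not among the 40 regions because si-FTO 2 lacked its peak. At chr21:46951303-46952062 the fold enrichment was 8.46, 10.84 and 9.71 in the 3 si-NC lists, while si-FTO 1 and 3 had 3.81 and 5.21. When regions listed in at least 2 libraries of each group were tested, its log2 difference was -1.09 (SE 0.20, limma adjusted p = 0.0274). Another SLC19A1 region, at chr21:46934629-46936054, was listed in si-FTO 2 and 3 alone with 8.59 and 8.31. The groups thus shared 1 place on SLC19A1, and the other was listed in si-FTO libraries alone. The gene overlaps COL18A1 in the annotation.

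The genes were then described by what they carry, in classes by family. The plot of classes gives the number of genes in each. A peak in all 6 lists was found for 36.2% of the solute carrier genes and 49.0% of all genes, to be set beside the counts below. No test was made on a class, and the number of all listed genes was also lower in every si-FTO list than in any si-NC list.

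**Figure D5:**
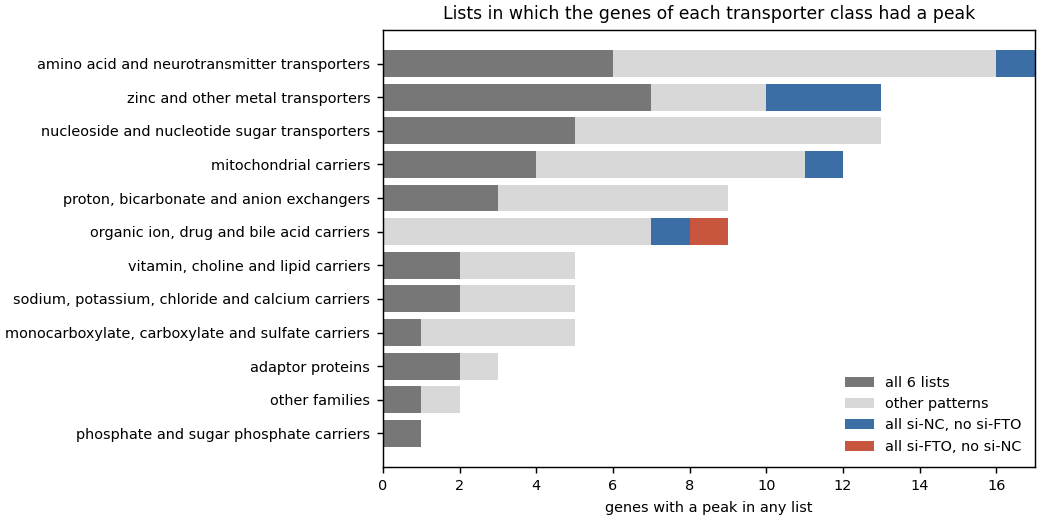
Number of genes with a peak in any list for each transporter class (horizontal axis), divided by the lists that held them: all 6, all 3 si-NC and no si-FTO, all 3 si-FTO and no si-NC, and any other pattern. Zinc and other metal transporters, 13 of the 94 genes, hold 3 of the 6 genes listed in si-NC alone, a pattern of 2.75% of all genes. Among these 3, SLC39A11 had no site common to the 3 si-NC lists.

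Amino acid and neurotransmitter transporters formed the largest class with 17 genes, of which 14, 14 and 15 had a peak in the si-NC lists and 11, 11 and 9 in the si-FTO lists. More si-NC than si-FTO lists held a peak for 9 of them (52.9%, against 42.6% of the solute carrier genes and 27.2% of all genes). The reverse was found for 1 (5.88%, against 18.5% of all genes), SLC43A2. More si-NC than si-FTO lists also held a peak for 60% of the sodium, potassium, chloride and calcium carriers. The share was 60% again for vitamin, choline and lipid carriers, 55.6% for organic ion, drug and bile acid carriers and 50% for mitochondrial carriers. It was 40% for monocarboxylate carriers and 33.3% for proton, bicarbonate and anion exchangers. SLC1A5 (ASCT2), the main glutamine importer of many tumor cells, had a peak in all 6 lists, with 8.71, 9.35 and 9.11 in si-NC compared with 7.26, 8.87 and 8.49 in si-FTO. SLC7A5 (LAT1), which imports leucine and other large neutral amino acids, had its main peak in every list but si-FTO 3, with 8.84, 8.33 and 5.83 in si-NC versus 6.84 and 7.51 in si-FTO 1 and 2. SLC7A11 (xCT), which brings in cystine for glutathione synthesis, had a weak peak in the 3 si-NC lists (4.15, 4.71 and 4.31) and in si-FTO 1 (5.07). SLC38A1 (SNAT1), a glutamine carrier, was listed in the 3 si-NC lists and in si-FTO 2. SLC1A3, a glial glutamate transporter, had 3 regions, none of which was in all 6 lists.

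Zinc and other metal transporters had 13 genes with a peak. Of these, 12 were found in each si-NC list, and 10, 9 and 7 in si-FTO 1, 2 and 3. More si-NC than si-FTO lists held a peak for 5 of them (38.5%, against 42.6% of the solute carrier genes and 27.2% of all genes). More si-FTO than si-NC lists held a peak for 1 (7.69%, against 18.5% of all genes). A peak in all 6 lists was found for 7 of the 13 genes, among them SLC39A14, SLC30A5 and SLC39A3 (ZIP3). SLC39A3 had 9.98, 12.77 and 8.57 in si-NC compared with 6.57, 8.65 and 7.55 in si-FTO at chr19:2732523-2733483 (log2 difference -0.43, limma adjusted p = 0.178), with overlapping groups. The iron exporter SLC40A1 (ferroportin) had a peak in si-FTO 1 alone, at percentile 2.37 of that list.

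Mitochondrial carriers of the SLC25 family had 12 genes, with 10, 8 and 9 in the si-NC lists and 4, 8 and 8 in the si-FTO lists. The lowest number was in si-FTO 1, and the groups overlapped. SLC25A23, which exchanges ATP-magnesium for phosphate, had 9.71, 9.92 and 10.67 in si-NC versus 8.09, 8.12 and 8.79 in si-FTO, without overlap but below the threshold of the test. SLC25A37 (mitoferrin 1), the iron importer of mitochondria, had 8.72, 7.69 and 7.99 in si-NC compared with 8.09, 9.85 and 10.94 in si-FTO. SLC25A44, a carrier of branched-chain amino acids, had 9.98, 7.37 and 7.68 in si-NC versus 6.70, 5.76 and 8.84 in si-FTO. SLC25A51 and SLC25A52 are near-identical copies, so the assignment of their peaks is uncertain.

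The nucleoside and nucleotide sugar transporters had 13 genes, with 7, 8 and 7 in the si-NC lists and 7, 10 and 8 in the si-FTO lists, and the groups overlapped. More si-FTO than si-NC lists held a peak for 5 of the genes (38.5%, against 18.5% of all genes), and the reverse was found for 3 (23.1%, against 27.2%). SLC35B2, the second Golgi carrier of PAPS beside SLC35B3, had a strong peak at chr6:44221838-44223381 in si-FTO 1 and 3 (21.82 and 19.62), and no peak in si-FTO 2 or any si-NC list. SLC35E1 and SLC35E4, which have no established substrate, were in all 6 lists. SLC35E1 had 14.42, 13.81 and 15.93 in si-NC compared with 12.59, 12.22 and 13.38 in si-FTO. SLC35E4 had 16.88, 12.86 and 16.06 in si-NC versus 14.03, 11.08 and 10.65 in si-FTO. Neither region passed the test.

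Proton, bicarbonate and anion exchangers had 9 genes, 3 of them (SLC26A2, SLC9A9 and SLC26A1) in all 6 lists. SLC9A9 (NHE9), which sets the pH of endosomes, had 13.48, 8.19 and 14.11 in si-NC compared with 8.73, 7.55 and 9.27 in si-FTO. The carriers of sodium, potassium, chloride and calcium had 5 genes. SLC24A1 and the sodium and calcium exchanger SLC8A1 were in all 6 lists, with SLC8A1 weak throughout at 4.65, 4.01 and 4.26 in si-NC versus 3.54, 4.13 and 4.58 in si-FTO. Of the 5 vitamin, choline and lipid carriers, SLC5A3 and SLC19A1 were in all 6 lists. SLC5A3, the myo-inositol carrier, had 7.84, 8.11 and 8.32 in si-NC compared with 10.23, 7.89 and 8.02 in si-FTO.

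Organic ion, drug and bile acid carriers had 9 genes and none in all 6 lists. The monocarboxylate carriers had 5 genes, with SLC16A6 in all 6 lists. SLC16A5 had 3 regions, each in 1 or 2 lists. The phosphate carrier SLC20A2 had a region in all 6 lists at chr8:42329620-42330172, with 9.24, 7.50 and 9.51 in si-NC versus 9.82, 7.35 and 6.66 in si-FTO. Its other region, at chr8:42294507-42295095, was in the 3 si-NC lists (6.07, 8.0 and 7.34) and in si-FTO 3 (6.08).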

How the data were processed

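MeRIP-seq was performed on K1 cells in 12 libraries, 3 IP and 3 input libraries for each of si-NC and si-FTO, and the 6 peak lists of the IP libraries were used. According to the submitters' processing notes, the authors used CASAVA 1.8 and BWA with hg19 (GRCh37). Peak identifiers name MACS, whose version and settings the sources used here do not give. The deposited columns hold a score (-10 times log10 of the p-value), the fold enrichment as a ratio of IP over input, the FDR in percent and the peak length in bp. In each list 1 emptied line was not analysed. No read counts entered the analysis, so depth per library and the precision it gives are unknown. A peak near the caller's threshold can be listed in 1 library and missed in the next.

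The members and lists were chosen with earlier results of these data known. Genes are named as in the lists, and positions are given from 1. Peaks were merged over the 6 lists with at least 1 bp of overlap in Python 3.11.15 (pandas 2.3.3, numpy 2.4.6 and scipy 1.17.1). Presence was counted per gene and per region. For regions listed in all 6 lists, log2 fold enrichment of the strongest peak, centred on the list median over these regions, was tested with limma 3.58.1 in R 4.3.3 (trend, Benjamini-Hochberg adjustment over 4737 regions). In simulated data for this comparison on 4737 regions with 200 changed, 75% of the changed regions were recovered at a log2 change of 1 and 97.5% at 2.

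Named genes were those listed in one group alone, those of regions listed in one group alone, the 10 with the highest mean percentile among genes in all 6 lists, those with an adjusted p under 0.05, the 5 with the most regions, and up to 3 in each class by mean percentile. Genes of small counts were named too. SLC6A6, SLC26A1, SLC26A2, SLC39A3, SLC19A1, SLC7A5, SLC7A11, SLC38A1, SLC43A2, SLC35B2, SLC40A1, SLC8A1, SLC25A51, SLC25A52 and those absent from si-FTO 1 alone were also named where values had been seen. The strand of SLC7A8 and overlaps between genes came from RefSeq (GRCh38.p14), without its coordinates. Alternatives left out each library, changed the peak threshold, list length, presence rule, overlap, scaling, filter or value, or used the replicate number as a block. Leaving out the 3 adaptors, and single libraries for the values per list, was added after seeing the data. Some members counted in the totals are not reported here by name. Motifs and position relative to the stop codon were not analysed here.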

Additional observations from a re-analysis of the deposited data

How the results depend on the processing

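Of 137 alternative values, 108 stayed on their side of the threshold or within a set range, some by construction. The tally is no measure of robustness. Of the rest, 21 counts moved and 8 tests of SLC7A8 no longer passed. No called region reversed. The number and share of solute carrier genes did not overlap between the groups with the upper 75% of peaks by fold enrichment or at equal list length. With 1 library left out, the difference in genes per list was -16.2 to -9.67, that in share -0.215 to -0.127 percentage points, that in mean length, which was 26.7 bp with overlapping groups, -2.05 (without si-FTO 1) to 61.4 bp and that in median percentile -5.83 to -1.69. With the upper 75% of peaks the difference in mean length was -17.9 bp, so its sign changed even among the 108. The causes of the changes below were not tested.

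With 1 library left out, genes in si-NC alone numbered 6 to 9 (6.45% to 9.68%, against 3.76% to 4.39% of all genes). Genes in si-FTO alone then numbered 1 to 3 (1.08% to 3.30%, against 2.99% to 3.35%). Leaving out a library cannot lower either count of genes. When a peak in at least 2 of 3 libraries sufficed against none in the opposite group, genes in si-FTO alone numbered 5 (5.32%, against 4.91% of all genes). With 1 library left out, regions in si-NC alone numbered 10 to 13 (7.69% to 10.2%, against 4.15% to 5.32% of all regions). Regions in si-FTO alone then numbered 1 to 7, the 7 without si-FTO 1 (5.19%, against 4.45%). In the other 5 cases the share in si-FTO alone was 0.763% to 2.29%, against 3.84% to 4.43%. By at least 2 of 3 libraries, regions in si-NC alone numbered 16 (11.8%, against 7.99% of all regions). Those in si-FTO alone numbered 10 (7.35%, against 7.06%). Both the 7 and the 10 count 1 gene on chromosome X and again on Y. Regions in si-FTO alone numbered 2 both with the upper 75% of peaks (1.83%, against 2.86%) and at equal list length (1.57%, against 3.45%). Without the 3 adaptors, 6.59% of genes were in si-NC alone and 1.10% in si-FTO alone.

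In the limma test, 1 of 40 solute carrier regions was higher in si-FTO with within-list percentiles (against 1.46% of all regions). With 1 library left out, the regions higher in si-FTO numbered 1 to 2, against 0.331% to 1.9% of all regions. Those lower in si-FTO then numbered 0 to 3. They were 0 of 47 without si-FTO 1 (against 0.312%) and 3 of 42 without si-FTO 2 (against 1.18%). Regions lower in si-FTO numbered 2 of 59 (SLC7A8 and SLC19A1, against 2.54% of all regions) when at least 2 libraries of each group sufficed. They numbered 0 of 32 (against 3.6%) among regions above the lower quartile of enrichment, where the SLC7A8 region was not included. With percentiles the 5′ region of SLC7A8 had a limma adjusted p of 0.0616. Over all 4737 regions the test called 199 higher and 161 lower, but 69 and 58 with percentiles, and 17 to 93 and 16 to 97 with 1 library left out, the fewest without si-FTO 1.

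With the replicate number as a block, limma called the same 2 and 1 solute carrier regions and 120 and 102 regions in all, and the counts of presence (6 and 1 genes, 9 and 1 regions) are the same by construction. Same-numbered libraries did not deviate together in fold enrichment (r = 0.03, 0.07 and -0.07). These values cannot show whether the libraries were made as pairs. Peak lists without read counts limit every absence to the threshold of the caller.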
